A study of Mus musculus with 2 samples.

Results

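The cytosolic ribosome translates nuclear mRNAs, and its proteins are encoded by genes named Rpl for the large (60S) subunit and Rps for the small (40S) subunit. The large subunit holds the peptidyl transferase centre and the exit tunnel, and the small subunit reads the mRNA. Their mRNAs are among the most abundant of a growing cell, and most begin with a run of pyrimidines at the 5' end (the TOP motif), through which the mTORC1 pathway adjusts their translation. The genes were chosen by symbol alone, as Rpl, Rplp or Rps followed by a digit, or Rpsa, without the Rps6k kinases. This gave 101 of the 14694 genes of the count table, 62 with large subunit names and 39 with small subunit names.

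RNA labelled as coming from mouse lung fibroblasts, the matrix-producing cells of the lung, was sequenced in 2 libraries, 1 labelled IR and 1 labelled NC. The labels spell out neither name, nor the number 4 that both carry, and give no strain, age, dose or time. The series concerns lung fibrosis after irradiation, rosmarinic acid and exosomes, and both libraries were depleted of ribosomal RNA. The protocol describes clearing culture supernatant by centrifugation, and it is not stated if the RNA is that of cells or of vesicles. With 1 library per group no difference has a replicate check, and every value is a comparison of 2 libraries, not of conditions.

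The IR library held 35219511 counted reads and the NC library 36084512. Fibroblast markers were present (9 of 12 in the table, together 4282 CPM in IR, against 5373 CPM in NC), where CPM is the read count scaled to a common library size. Most of that sum came from Vim, an intermediate filament (2195 CPM in IR, 1820 in NC), and Fn1, the fibronectin gene (1417 in IR, 2472 in NC). Col1a2, a collagen chain, stood at 538 CPM in IR, against 890 in NC, and Col1a1, another, at 7.83 CPM in IR, against 18.9 in NC. Dcn held only 30 reads in IR and 7 in NC. Vim and Dcn were higher in IR, and the other fibroblast markers in the table were lower. The 5 of 9 epithelial markers in the table added up to 2.95 CPM in IR, against 2.36 in NC, with Sftpc at 0 reads in IR. The 4 of 5 endothelial markers added up to 2.69 CPM in IR, against 1.65 in NC, with Pecam1 and Tek at 0 reads in NC. The 3 of 6 leukocyte markers reached 101 CPM in IR, against 77.8 in NC, mostly Cd68, with the defining leukocyte gene Ptprc at 4 reads in IR and 0 in NC. The 2 of 3 mesothelial markers reached 97.8 CPM in IR, against 197 in NC, almost all of it Msln, with Upk3b at 0 reads in NC. The 2 erythroid markers stood at 0.287 CPM in IR and 0.275 in NC. The part of these differences in the values below was not tested, and in such samples fewer cells of a type and less RNA per cell cannot be told apart.

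The 101 names did not all belong to ribosomal proteins. The text below keeps to the established genes of each subunit, called core genes, and treats the rest apart. Of 46 established large subunit names 45 were in the table, and of 31 small subunit names 29 were, while Rpsa and Rps27 were not analysed here. A further 20 names belonged to annotated copies such as Rpl9-ps6, and 4 to paralogs (Rpl3l, Rpl22l1, Rpl36al and Rps27l). Rpl7l1, a homologue of Rpl7, and Rps19bp1, named for binding Rps19, were not counted as established ribosomal proteins. The row named Rpl24 carried an identifier that GENCODE vM21 gives to Zbtb11, so its 150 reads in IR and 162 in NC were left out of the core. A row spelled RPL24, outside the naming rule, carried the identifier of the true gene and held 16 reads in IR and 27 in NC. Of the 101 names, 95 had at least 50 reads over both libraries and were compared, among them 44 core large and 29 core small subunit genes. The core gene below that filter was Rpl22, with 9 reads in IR and 5 in NC.

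Together the 101 genes took 12.5% of the counted reads in IR (95% exact Clopper-Pearson interval 12.47 to 12.50%) and 11.9% in NC (11.86 to 11.89%). Large subunit names took 7.38% in IR and 7.11% in NC, and small subunit names 5.11% in IR and 4.77% in NC. All such intervals cover counting error only. Core large subunit genes drew 1.46 times the reads of core small subunit genes in IR and 1.51 times in NC.

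Levels spread widely within each subunit, and their order was much the same in both libraries. Compared as CPM per kilobase of coding sequence, Rpl39, a tunnel protein with a very short coding sequence, was highest, at 17496 in IR and 16712 in NC. Rplp1, an acidic protein of the stalk that recruits translation factors, stood at 12061 in IR and 10329 in NC. Rpl12, at the base of that stalk, stood at 12006 in IR and 13266 in NC, and Rplp0, the stalk's anchor, at 9412 in IR and 8165 in NC. In the small subunit Rps14, a platform protein, led with 12088 in IR and 9469 in NC. Next came Rps18 of the head (7878 in IR, 7576 in NC), Rps3, which lines the mRNA entry channel (7334 in IR, 6113 in NC), and Rps2 (6676 in IR, 5340 in NC). At the low end of the large subunit were Rpl7, at 83.8 in IR and 114 in NC, and Rpl41, at 68.0 in IR and 64.4 in NC. Across the 73 core genes compared, the log2 CPM of the 2 libraries correlated with Pearson r = 0.99, as a description across genes that share both libraries.

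**Figure D1:**
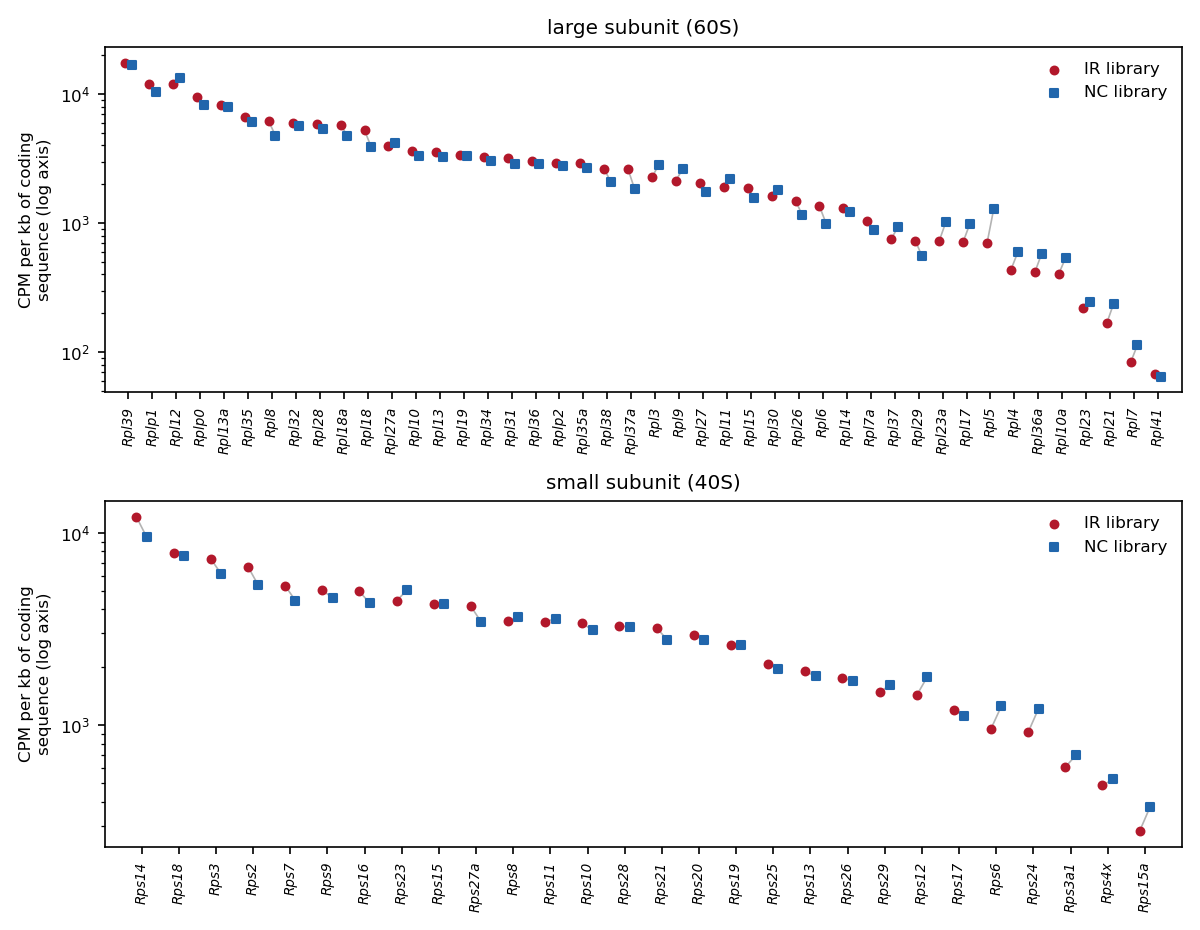
Level of each core ribosomal protein gene as CPM per kilobase of coding sequence (log axis) in the IR library (circles, left) and the NC library (squares, right), 1 library each, ordered by the IR level, with 72 of the 73 core genes drawn. The large subunit runs from 17496 (Rpl39) down to 68.0 (Rpl41) in IR, with Rpl5 showing the widest gap between the libraries.

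Differences between the libraries were given as the log2 ratio of IR over NC, with a 95% interval (CI) from the split of each gene's reads. None of the 95 genes compared was at least 2-fold higher or lower, against 1.6% of all 10921 genes that were higher and 1.82% that were lower. Such differences were rare among abundant genes, with 5 higher and 4 lower of the 2110 genes of at least 100 CPM. Of the 44 core large subunit genes, 27 had an interval above a ratio of 1 and 16 below it. Of the 29 small subunit genes, 17 lay above and 10 below. Among all genes 31.2% lay above and 32.4% below, and among the 2110 genes of at least 100 CPM 1023 lay above, 779 below and 308 included 1, against 3 of the 73 core genes, whose higher counts give narrower intervals. Both subunits thus held genes on either side. Centring on the trend over transcript length and GC content turned the split to 19 above and 20 below for the large subunit, and to 10 above and 16 below for the small one. Centring on the trend over expression gave 13 above and 13 below for the small subunit.

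The median log2 ratio was 0.08 for the large subunit (95% order-statistic interval -0.09 to 0.13) and 0.04 for the small subunit (-0.06 to 0.12), against -0.01 for all genes and 0.04 for genes of at least 100 CPM. The mean was 0.00 for the large subunit, since its low ratios reached further than its high ones. The spread over genes was 0.32 for the large and 0.21 for the small subunit (SD over genes, not replicates), against 0.28 for all genes of at least 100 CPM. At a smaller size, a log2 ratio of at least 0.32 up or down, 7 core large subunit genes were higher in IR and 8 lower, and in the small subunit 2 were higher and 3 lower. These are 15.9% higher and 18.2% lower for the large subunit, and 6.90% higher and 10.3% lower for the small one. The same size was passed by 15.2% of all genes on the higher side and 17.2% on the lower side, and by 11.9% and 9.29% of the genes of at least 100 CPM. The large subunit was thus near the share of all genes, but above that of genes of at least 100 CPM on both sides. The small subunit was below the share of all genes on both sides. Beside genes of at least 100 CPM it was below on the higher side and slightly above on the lower side, with few genes in each count. That split turned to 2 higher and 11 lower in the large subunit after centring on length and GC content, and to 5 higher and 10 lower after centring on expression. In the small subunit it turned to 1 higher and 4 lower with total counts, with or without the ribosomal protein genes, to 1 higher and 3 lower with the size factors of DESeq2, and to 0 higher and 4 lower under either centring.

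**Figure D2:**
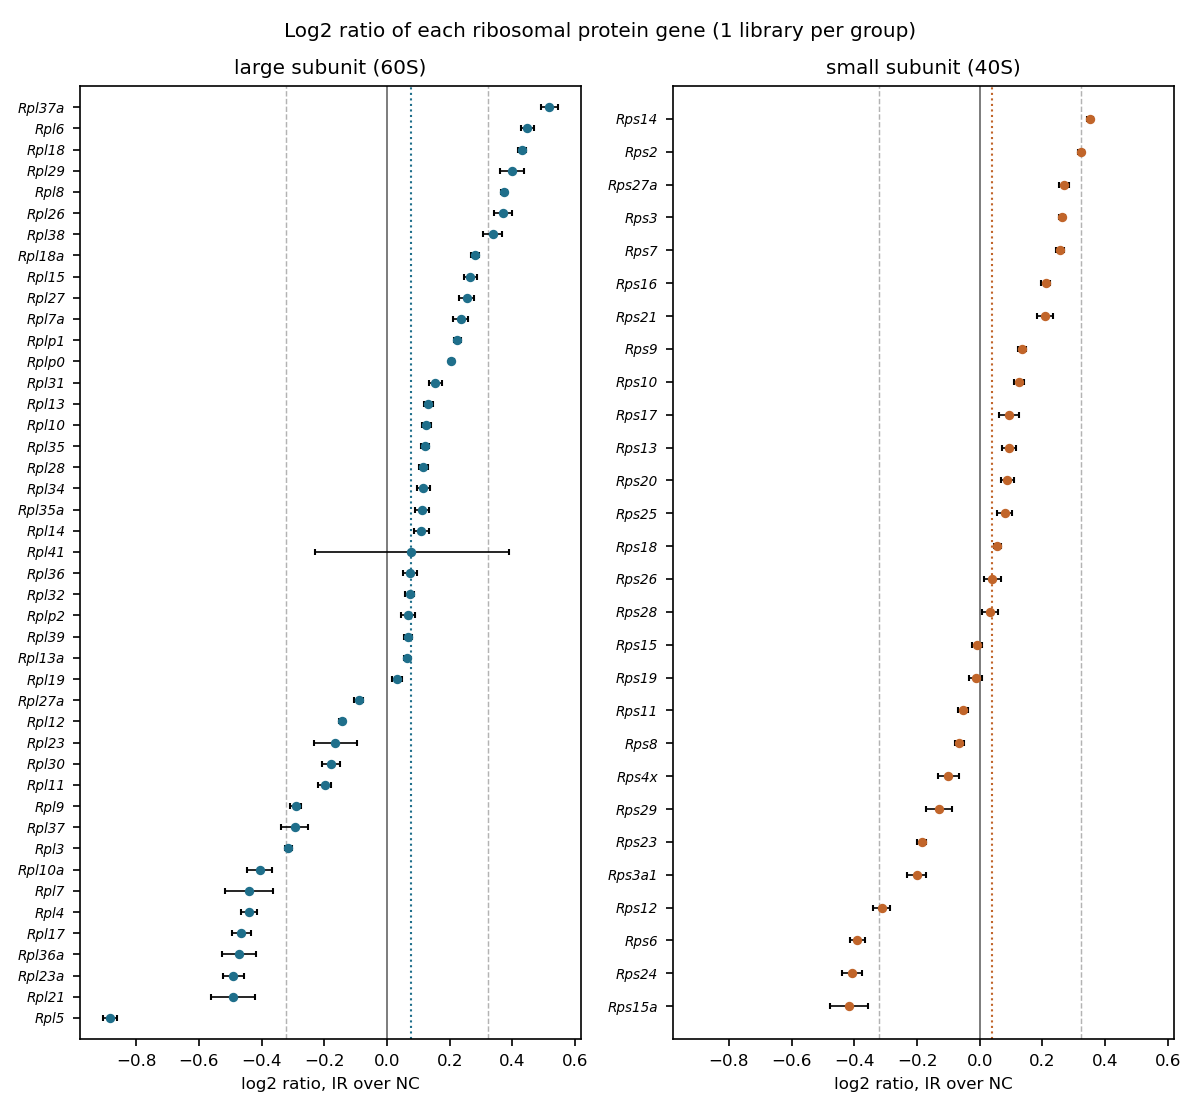
Log2 ratio of IR over NC for each core gene of the large and small subunit (points), with the 95% interval of the read split (bars, counting error only), for 72 of the 73 core genes. Dashed lines mark log2 ratios of 0.32 up and down and dotted lines the median of each subunit, and Rpl5 at -0.88 stands below every other gene.

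Among the lower large subunit genes Rpl5 had the lowest ratio. It lies at chr5:107900502-107909005 on the plus strand (GRCm38) and encodes a protein that, with Rpl11, binds 5S ribosomal RNA. Rpl5 held 21838 reads (626 CPM) in IR and 42080 reads (1155 CPM) in NC, a log2 ratio of -0.88 (95% CI -0.91 to -0.86, from the split of its reads). Another annotated gene overlaps 26.7% of its exon sequence, so part of its reads is uncertain. Rpl11, its partner in the 5S particle, held 35481 reads in IR and 42528 in NC (-0.20, CI -0.22 to -0.18). Both proteins, when free of the ribosome, are known to bind Mdm2, the ligase that degrades p53. Both genes were lower in IR, at sizes that differed by far more than their intervals.

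Next to Rpl5 stood Rpl21, with 2813 reads in IR and 4129 in NC (-0.49, CI -0.56 to -0.42), and Rpl23a, with 11870 reads in IR and 17417 in NC (-0.49, CI -0.52 to -0.46). Rpl23a sits at the tunnel exit, where the signal recognition particle docks, and 62.3% of its exon sequence overlaps another gene. Rpl36a, a protein of the tRNA exit site, held 4644 reads in IR and 6722 in NC (-0.47, CI -0.53 to -0.42). Rpl17 at the tunnel exit held 13767 reads in IR and 19837 in NC (-0.46, CI -0.50 to -0.43). Rpl4, which reaches into the tunnel, held 19151 reads in IR and 27144 in NC (-0.44, CI -0.47 to -0.41). All of these were lower in IR, and the next, Rpl7 (-0.44) and Rpl10a (-0.41), were at nearly the same ratio.

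At the other end Rpl37a, a zinc-finger protein of the large subunit, held 25324 reads in IR and 18464 in NC (0.52, CI 0.49 to 0.55). Rpl6 held 41821 reads in IR and 32034 in NC (0.45, CI 0.43 to 0.47), and Rpl18 held 103005 in IR and 79777 in NC (0.43, CI 0.42 to 0.44). Rpl29, which also binds heparin, held 12267 reads in IR and 9721 in NC (0.40, CI 0.36 to 0.44). Rpl8, a protein beside the peptidyl transferase centre, held 165576 reads in IR and 133536 in NC (0.37, CI 0.36 to 0.38). Rpl26, which is known to bind p53 mRNA, held 22647 reads in IR and 18311 in NC (0.37, CI 0.34 to 0.40). These 6 genes were higher in IR, each by less than 2-fold.

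The stalk proteins moved within a narrower range. Rplp0 held 312264 reads in IR and 282860 in NC (0.21, CI 0.20 to 0.21), and Rplp1 held 143896 in IR and 128684 in NC (0.22, CI 0.21 to 0.23). Rplp2 was almost level, with 35170 reads in IR and 35049 in NC (0.07, CI 0.05 to 0.09). Rpl12 ran the other way, with 207330 reads in IR and 239213 in NC (-0.14, CI -0.15 to -0.14). By site, the median log2 ratio was 0.14 for the stalk (4 genes), 0.05 for the tunnel and its rim (8 genes, 5 with an interval above 1 and 3 below), -0.31 for the peptidyl transferase centre and tRNA sites (5 genes, 2 above and 3 below) and 0.11 for the other large subunit genes (25 genes, 17 above and 7 below). Each of these sites held genes on both sides, and differences between sites were not tested.

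In the small subunit Rps15a had the lowest ratio, with 3830 reads in IR and 5336 in NC (-0.42, CI -0.48 to -0.36). Rps24, a gene mutated in Diamond-Blackfan anaemia, held 12801 reads in IR and 17732 in NC (-0.41, CI -0.44 to -0.37). Rps6, the substrate of the S6 kinases, held 24983 reads in IR and 34211 in NC (-0.39, CI -0.41 to -0.37). Rps12 of the head held 19766 reads in IR and 25629 in NC (-0.31, CI -0.34 to -0.29), and shared 13.7% of its exon sequence with an overlapping gene. Rps3a1 stood at -0.20 and Rps23, a decoding-centre protein, at -0.18. The lowest small subunit ratios were thus closer to 0 than that of Rpl5.

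The highest small subunit ratio was that of Rps14, whose loss is linked to the anaemia of the 5q- syndrome, with 191031 reads in IR and 156260 in NC (0.35, CI 0.34 to 0.36). Rps2, beside the mRNA entry, held 204724 reads in IR and 170984 in NC (0.32, CI 0.31 to 0.33), a log2 ratio at the limit of 0.32. Rps27a, made as a fusion with ubiquitin, held 67733 reads in IR and 58646 in NC (0.27, CI 0.25 to 0.29). Rps3 stood at 0.26, Rps7 at 0.26 and Rps16 at 0.21. Head genes had a median of 0.07 (14 genes, 10 with an interval above 1 and 2 below), and body and platform genes a median of -0.05 (15 genes, 7 above and 8 below). The genes past a log2 ratio of 0.32, 2 higher and 3 lower, belonged to the body and platform, and the difference between the sites was not tested.

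Ribosomal proteins outside the naming rule included Fau and Gnb2l1. Fau, fused to a ubiquitin-like protein and the source of Rps30, held 44828 reads in IR and 42777 in NC (0.13, CI 0.11 to 0.15). Gnb2l1, the older name of the scaffold Rack1, held 230656 reads in IR and 214093 in NC (0.17, CI 0.16 to 0.18). Both were higher in IR.

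Since a pyrimidine run at the 5' end is what the mRNAs of the family are known to share, 30-base windows around the longest run of C and T within 50 bases of the annotated start are shown for genes at both ends of the ratio. These runs need not be the first bases of the mRNA. Positions are relative to the start annotated by RefSeq, which for Rpl5 lies inside the gene bounds given above. The runs began at -37 in Rps24, -20 in Rpl5, -15 in Rps15a, 2 in Rpl18 and 14 in Rpl11. They began at 23 in Rps7, 24 in Rpl37a, 27 in Rpl4, 28 in Rpl36a and 32 in Rpl6. The windows are from the RefSeq promoter table (GRCm38.p6), on the strand of the gene, with the run of C and T in capitals.
Rpl5, chr5:107900500-107900529, plus strand: tacagccaCTCTTTCTCacgtcgcttgcgt
Rpl36a, chrX:134585673-134585702, plus strand: ggctctagCCTCTCTCTTTCCgagctgcta
Rpl4, chr9:64173405-64173434, plus strand: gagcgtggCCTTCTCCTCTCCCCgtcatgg
Rps15a, chr7:118116141-118116170, minus strand: ccggcccaCTCTCTTTCTgccatcttccct
Rps24, chr14:24490708-24490737, plus strand: gtgagcggTCCTCTTTTCCTCCTCTCCagc
Rpl11, chr4:136053359-136053388, minus strand: gccggaagTCTCCCTCTCTCTTCCTgttct
Rpl37a, chr1:72711275-72711304, plus strand: gcattgcgTCCCTTCCTCTTCggacttggg
Rpl6, chr5:121204521-121204550, plus strand: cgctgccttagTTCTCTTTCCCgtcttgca
Rpl18, chr7:45718064-45718093, plus strand: gcaggccgCTCTTTCCCCgcccactccggc
Rps7, chr12:28635910-28635939, minus strand: tgtccccaCCTCTTTTCTTCCgccacccgg

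The genes shown, lower in IR (Rpl5, Rpl36a, Rpl4, Rps15a, Rps24 and Rpl11) or higher in IR (Rpl37a, Rpl6, Rpl18 and Rps7), were chosen, and all carried such a run. The longest run was only 6 bases in Rps3 (ratio 0.26), Rps3a1 (-0.20) and Rpl23 (-0.16), which are not shown. Of the 53 core genes compared that matched the promoter table, 46 (86.8%) had a run of at least 8 C or T within 50 bases of the annotated start. Of the 10723 genes of the count table that matched it, taken without a read filter, 37.4% did. The run was present in 30 of the 34 genes with a ratio above 1 and in 16 of the 19 with a ratio below 1. The letters CCGGAAG, the core bound by ETS factors, were found on either strand in 23 of the 53 genes (43.4%), against 17.7% of the 10723. The windows ran from 250 bases before to 50 bases after the start. These letters were in 18 of the 34 genes with a ratio above 1 and in 5 of the 19 with a ratio below 1, a difference that was not tested. The letters AAGATGG, the core of YY1, were in 13.2% of the 53 genes and 8.06% of the 10723, TATAAA in 9.43% and 9.58%, and GGGCGG in 64.2% and 65.4%. Where a gene had several promoters, its longest run and a match in any of them counted. A match describes the letters in the window and says nothing of binding.

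Paralogs made up very different shares of their pairs. Rpl22l1, the paralog of the RNA-binding protein Rpl22, held 6393 reads in IR and 4652 in NC (0.52, CI 0.47 to 0.58), while Rpl22 itself held 9 in IR and 5 in NC. The paralog thus made up 99.86% of the reads of the pair in IR (interval 99.73 to 99.94%) and 99.89% in NC (99.75 to 99.97%). These shares hold only for the reads assigned to each row, and Rpl22 was below the filter of 50 reads over both libraries. Rpl36al made up 50.2% of the reads of Rpl36al and Rpl36a in IR (49.1 to 51.2%) and 45.0% in NC (44.2 to 45.9%). For both genes 100% of the 50-base words of the coding sequence also occur in transcripts of other genes, so this split is uncertain. Its own reads were 4672 in IR and 5509 in NC (-0.18, CI -0.23 to -0.12), and 24.5% of its exon sequence lies under another gene. Rpl3l, the paralog of Rpl3 known from striated muscle, held 7 reads in IR and 0 in NC, which allows a share of up to 0.00298% of its pair in NC. Rps27l held 25735 reads in IR and 20661 in NC (0.38, CI 0.35 to 0.41), and its partner was not analysed here.

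How alike the genes of a pair are, to each other and to other copies, decides what short reads can tell apart. The 60-base stretches of coding sequence shown are from GENCODE vM21 transcripts, with the bases that differ within a pair in capitals. Likeness to other copies is not shown. The Rpl36a pair differs at 39 of 318 aligned bases, the Rpl22 pair at 105 mismatches over an alignment of 385 positions, and Rpl9 and its copy Rpl9-ps6 at 1 of 576.
Rpl36a, coding bases 118 to 177: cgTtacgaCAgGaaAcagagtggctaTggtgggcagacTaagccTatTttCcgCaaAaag
Rpl36al, coding bases 118 to 177: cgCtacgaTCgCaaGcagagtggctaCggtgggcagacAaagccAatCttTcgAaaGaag
Rpl22, coding bases 175 to 234: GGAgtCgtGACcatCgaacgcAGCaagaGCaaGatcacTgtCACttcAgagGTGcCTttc
Rpl22l1, coding bases 157 to 216: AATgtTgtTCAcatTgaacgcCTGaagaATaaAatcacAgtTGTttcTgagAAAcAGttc
Rpl9, coding bases 236 to 295: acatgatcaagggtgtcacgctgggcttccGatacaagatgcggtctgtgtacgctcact
Rpl9-ps6, coding bases 236 to 295: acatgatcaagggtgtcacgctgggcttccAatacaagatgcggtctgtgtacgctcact

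Near-identity was the rule. Of the 73 core genes compared, 64 shared at least 50% of the 50-base words of their coding sequence with transcripts of other genes, and 27 shared all of them. Among these 27 were Rpl5, Rpl21, Rpl23a, Rpl36a and Rpl17, which were lower in IR, and Rpl38, Rpl15 and Rpl27, which were higher. How reads that match several places were counted is not given in the sources used here. The split of reads between a gene and its copies is therefore uncertain for all 64. The 9 genes that shared less had a median log2 ratio of 0.07, and 6 of them had an interval above 1 and 2 below. Within these 9, Rpl4 (20.3% shared) stood at -0.44, Rps3 (8.09% shared) at 0.26 and Rpl8 (8.73% shared) at 0.37. Ratios on both sides were thus also found in genes with little shared sequence.

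The ratios of copies were set beside those of their genes. Of 39 copies with at least 50 reads and a compared parent gene, 31 had a log2 ratio of the same sign as the parent (Pearson r = 0.42, Spearman rho = 0.56 across copies, which share libraries and 24 parents). This is a description, since 27 of the 40 copies compared had a ratio above 1, as most parents did, and since near-identical sequences can draw on the same reads. Rps12-ps3, identical to Rps12 in all 396 coding bases, held 5421 reads in IR and 8295 in NC (-0.55, CI -0.60 to -0.50), beside -0.31 for Rps12. Rpl9-ps6 held 4091 reads in IR and 2313 in NC (0.88, CI 0.81 to 0.96), while Rpl9 held 42887 in IR and 54817 in NC (-0.29). Rpl10-ps3, identical to Rpl10 in coding sequence, held 122 reads in IR and 252 in NC (-0.97, CI -1.31 to -0.67), while Rpl10 stood at 0.13. Gm10260, a copy of Rps18, held 349 reads in IR and 742 in NC (-1.02, CI -1.21 to -0.84). Its reads are uncertain, since 96.4% of its exon sequence overlaps another gene. Gm6576, a copy of Rps2, held 257 in IR and 100 in NC (1.41, CI 1.09 to 1.77). These exceptions were chosen after their values were seen.

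A copy could also outnumber its gene. Gm10076, a copy of Rpl41, held 992 reads in IR and 868 in NC, while Rpl41 held 178 in IR and 176 in NC. The low level given above for Rpl41 therefore holds for the reads assigned to that row alone. With the reads of copies added to their gene, the median log2 ratio was 0.09 for the large and 0.04 for the small subunit.

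**Figure D3:**
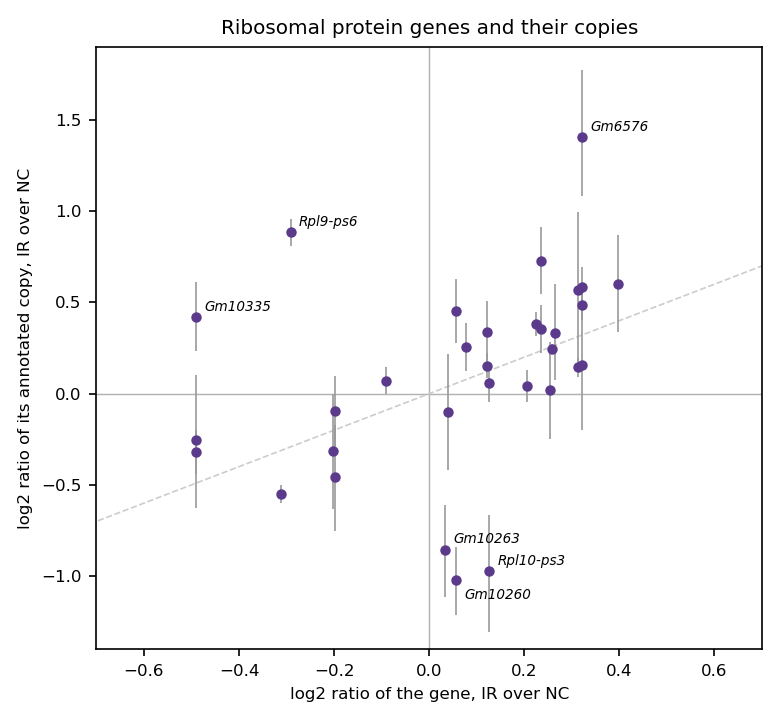
Log2 ratio of IR over NC of each annotated copy with at least 200 reads (y axis, bars are 95% intervals of the read split) against that of its ribosomal protein gene (x axis), 1 library per group. The dashed line marks equal ratios, and the labelled copies, among them Rpl9-ps6 at 0.88 and Gm6576 at 1.41, lie far from it.

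The family also shared short transcripts, with a median length of 833 bases against 2978 for all genes, and its 73 core genes lay on 19 chromosomes. Across these genes the log2 ratio was higher where GC content was higher, with Spearman rho = 0.36 (0.42 in the large subunit, 0.24 in the small), against -0.04 across all 10881 genes with a known GC content. The 37 core genes of higher GC content had a median ratio of 0.11, with 26 intervals above 1 and 8 below, and the 36 of lower GC content a median of -0.03, with 18 above and 18 below. These genes share libraries and base composition, so the correlation is a description, and the part of GC content in the ratios was not tested. Rpl5 had a GC content of 42.7%, and Rpl37a, at the other end of the ratio, 47.1%.

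**Figure D4:**
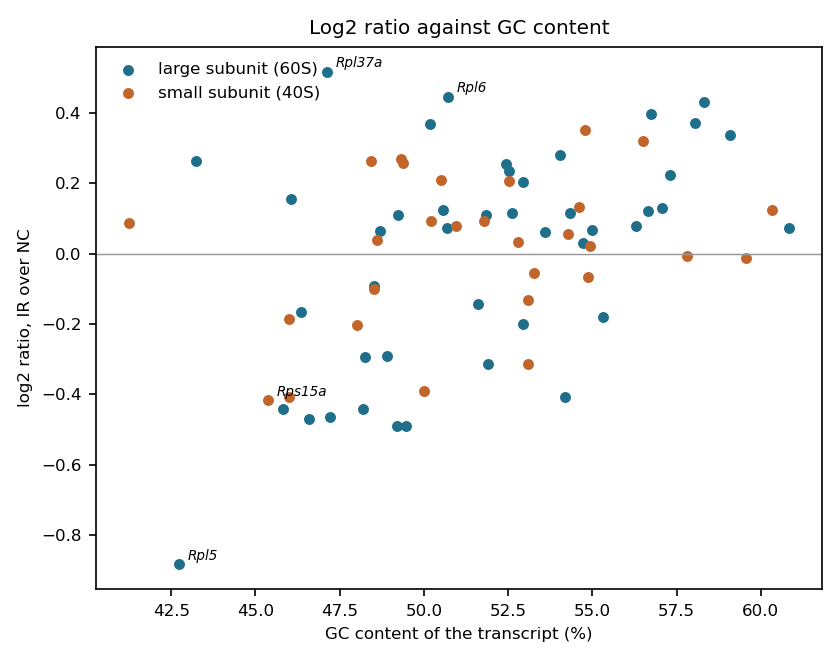
Log2 ratio of IR over NC against the GC content of the transcript for the core genes of the large subunit (44 genes) and the small subunit (29 genes), 1 library per group. Low ratios lie mostly on the left, with Rpl5 at 42.7% GC and -0.88, and exceptions such as Rpl37a at 47.1% GC and 0.52.

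Many ribosomal protein genes carry small nucleolar RNAs in their introns. In the large subunit the 20 hosts had a median log2 ratio of -0.12 (9 intervals above 1, 11 below), and the 24 other genes one of 0.12 (18 above, 5 below). In the small subunit the 9 hosts stood at 0.09 (5 above, 4 below) and the 20 other genes at 0.04 (12 above, 6 below). Among all genes the 201 hosts had a median of 0.06 (42.8% of intervals above 1, 31.3% below), and the 10680 other genes one of -0.01 (31.0% above, 32.5% below). Hosts thus had the lower median in the large subunit and the higher one in the small subunit, as a description without a test, and Rpl5, Rpl21, Rpl23a, Rpl17 and Rpl4 were among the large subunit hosts.

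Other genes of the translation machinery gave a frame for these values. Of 23 TOP mRNAs outside the ribosome, 12 had an interval above 1 (52.2%) and 7 below (30.4%), with a median of 0.07. Among all genes 31.2% lay above and 32.4% below, and among genes of at least 100 CPM 48.5% above and 36.9% below. The highest were Eif2s3x, an initiation factor subunit (1531 reads in IR, 1055 in NC, 0.60), and Ipo5, an importin (4757 in IR, 3526 in NC, 0.49). The lowest were Eif4a2, a helicase (459 in IR, 605 in NC, -0.33), and Eef1b2, an elongation factor (31996 in IR, 41888 in NC, -0.33). Of 17 partners that chaperone or assemble ribosomal proteins, 8 had an interval above 1 (47.1%) and 2 below (11.8%), with a median of 0.07. The highest were Grwd1, a histone-binding protein that joins large subunit assembly (6761 in IR, 4532 in NC, 0.64), and Ltv1, a small subunit assembly factor (1278 in IR, 1009 in NC, 0.40). Bccip (963 in IR, 1170 in NC, -0.22) and Heatr3 (2519 in IR, 2827 in NC, -0.10) were the lowest.

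Of 18 genes that control ribosomal protein genes or sense free ribosomal proteins, 5 had an interval above 1 and 7 below (median -0.06). These are 27.8% above and 38.9% below, against 31.2% and 32.4% of all genes. Myc, a transcription factor that drives ribosome production, held 25788 reads in IR and 15511 in NC (0.80, CI 0.77 to 0.82), and its partner Max held 2162 in IR and 1464 in NC (0.62). Trp53, the p53 gene, held 46 reads in IR and 84 in NC (-0.78, CI -1.36 to -0.27), and Tsc1, an inhibitor of mTORC1, held 564 in IR and 782 in NC (-0.41). Mdm2, named after its value was seen because Rpl5 and Rpl11 bind its protein, held 3075 reads in IR and 2428 in NC (0.40, CI 0.33 to 0.48).

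Mitochondrial ribosomal proteins, which serve the separate ribosome of the organelle, had 41 intervals above 1 and 6 below among 72 genes (median 0.14). These are 56.9% above and 8.33% below, against 31.2% and 32.4% of all genes, and 48.5% and 36.9% of genes of at least 100 CPM. Their small subunit stood at 0.20 (29 genes, 20 above and 1 below) and their large subunit at 0.10 (43 genes, 21 above and 5 below). The highest were Mrps6 (6378 reads in IR, 4413 in NC, 0.59) and Mrpl12 (18047 in IR, 12752 in NC, 0.56), and the lowest Mrpl42 (19 in IR, 33 in NC, -0.68) and Mrpl47 (33 in IR, 49 in NC, -0.48). Mrpl42 and Mrpl47 held few reads, and their intervals included a ratio of 1 (CI -1.63 to 0.12 and -1.19 to 0.16). Next lowest were Mrps31 (1031 in IR, 1413 in NC, -0.39, CI -0.51 to -0.28) and Mrpl18 (1163 in IR, 1582 in NC, -0.38, CI -0.49 to -0.27). Among the lowest of the cytosolic ribosome, Rpl5 and Rps6 held 21838 and 24983 reads in IR, and Rpl7 and Rpl21 held 2367 and 2813.

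**Figure D5:**
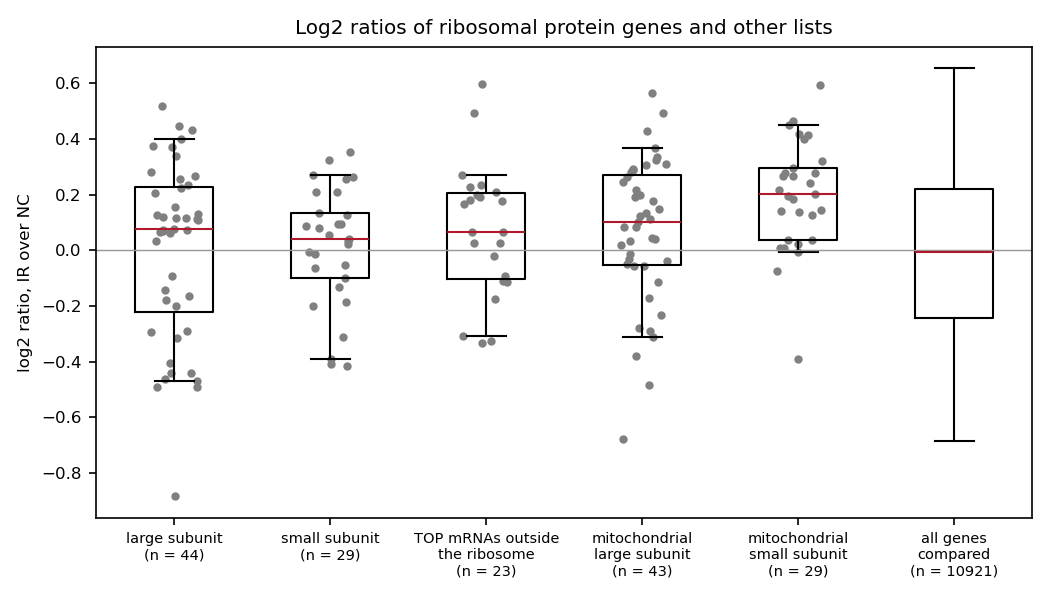
Log2 ratio of IR over NC for core large and small subunit genes, TOP mRNAs outside the ribosome, mitochondrial ribosomal proteins and all 10921 genes compared. Points are genes (not drawn for all genes), boxes span the quartiles with the median in red, and whiskers reach the 5th and 95th percentile. The medians are 0.08, 0.04, 0.07, 0.10, 0.20 and -0.01.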

How the data were processed

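Values are whole raw counts in 1 IR and 1 NC column, as deposited, per the file headers. Its 2 normalised columns were not used. The submitters' processing notes name cutadapt 1.9.3, HISAT2, HTSeq 0.9.1, edgeR and mm10. The annotation release and strand setting are not given in the sources used here. Library sizes were scaled with edgeR 4.0.16 (TMM factors 0.991 for IR and 1.01 for NC, R 4.3.3). Log2 ratios used a prior count of 2 and genes with at least 50 reads over both libraries. Intervals are exact 95% Clopper-Pearson intervals of the read split, and PCR copies are not independent molecules. A gene was called at 2-fold (or at a log2 ratio of 0.32) when its interval also excluded 1. With 1 library per group no p-value was computed, so larger or deeper counts narrow only the counting error. Lengths, exon overlap and shared words came from GENCODE vM21 (GRCm38), which held 14584 of 14694 identifiers. The procedure was tested on simulated counts. Members and lists were chosen with earlier results of these data known. Named are, per subunit, the 6 highest and 6 lowest core ratios, the 4 highest levels, stalk and 5S proteins, paralogs, and the 2 highest and lowest of each other list. Others named were chosen after their values were seen. Some genes counted in the lists are not reported by name here.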

Additional observations from a re-analysis of the deposited data

How the results depend on the processing

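No paired analysis was possible because each group has 1 library. The median log2 ratio ranged from -0.01 (centring on length and GC content) to 0.11 (without genes of exon overlap) in the large subunit, and from -0.06 (length and GC content) to 0.08 (members sharing under 50% of their words) in the small one, all within the intervals given above. None of the 20 core genes past a log2 ratio of 0.32 changed sign under any of the 13 scalings, filters and centrings run per gene (18 of the 20 remain without genes of exon overlap), while 12 of 73 core genes did when centring on length and GC content, 3 when centring on expression, 2 with the upper quartile and 1 with total counts. Large subunit genes with a log2 ratio of at least 0.32 numbered 2 when centring on length and GC content, against 7. Small subunit genes with a log2 ratio of at least 0.32 numbered 1 with total counts, with the size factors of DESeq2 and with totals without ribosomal protein genes, and 0 under either centring, against 2. Centring on length and GC content gave 10 small subunit intervals above 1 and 16 below, against 17 and 10. Over all genes, 584 were at least 2-fold higher and 606 lower with no filter, and 73 and 71 with a filter of 200 reads, against 175 and 199. A 1.5-fold rule called 665 higher and 754 lower, and a rule of 0.32 on the log2 scale 1659 and 1881. The family's share of reads was 13.8% in IR and 13.2% in NC without mitochondrial and the 20 most abundant other genes in the total, and 12.3% in IR and 11.7% in NC for core genes only. The cause of these shifts was not tested. Adding the reads of copies, and keeping the row named Rpl24, were settings chosen after seeing the data. Rpl22, Rpl3l and Rpl41 held few reads, so their intervals are wide.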
